A study of Mus musculus with 36 samples.

Results

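Prnp, the gene of the cellular prion protein, and 7 further transcripts were described across 36 bulk RNA libraries of mouse hippocampus. The 8 genes were selected on their higher counts in mice carrying a mutant tau transgene, out of 50559 genes in the count table, and all 8 passed the filter on low counts. The other members were Prn, Lamr1-ps1, Gm32754, Gm32875, Gm6214, 4930590L14Rik and Gm5802. Because the list was drawn from the comparison of Tau with wild-type libraries in these data, levels and calls in that comparison are given to describe the members, and no result is supported with them. For 6 of the 8 genes, Prnp, Lamr1-ps1 and the 4 on chromosome 3, values in 16 of 17 Tau-labelled libraries lay above those in all 19 libraries without the tau transgene. Prn was higher on average with overlapping ranges. For Gm5802 the label of a Tau-line transcript did not hold: Gm5802 was high in 3 Tau libraries and 1 wild-type library and low in every APP/Tau library.

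Libraries came from female mice aged 6 months on a C57BL/6 background, and every mouse, controls included, carried Pvalb-IRES-Cre and the RiboTag allele. The RNA was the input fraction of the lysate left after mitochondria were removed from both hippocampi, so it was not restricted to the tagged parvalbumin neurons. APP mice carried the heterozygous human APP (Sw,Ind) transgene of the J9 line, Tau mice the P301S transgene of the PS19 line, APP/Tau mice both, and wild-type (WT) mice neither. The PS19 line expresses human mutant tau from the mouse prion promoter, and the counts do not separate reads of the endogenous Prnp gene from reads of transgene vector sequence that matches it. Mice of every group, naive ones included, were handled for 3 days. Naive mice stayed in the home cage, while trained mice swam in the Morris water maze for 5 days with 6 trials a day. Trained mice were killed 2 hours after a probe test given 24 hours after the last trial. There were 6 naive and 5 trained libraries of WT mice, 5 and 3 of APP mice, 4 and 4 of Tau mice, and 6 and 3 of APP/Tau mice.

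Prnp encodes a protein held at the outer face of the cell membrane by a glycosylphosphatidylinositol (GPI) anchor, abundant on neurons and also made by glia, and its misfolded form is the agent of prion disease. Its promoter is widely used to drive transgenes in the brain. Prn is the annotated readthrough from Prnp into Prnd, the gene of the related protein doppel, and in the GENCODE M21 annotation it shares its first 2 exons with Prnp. Lamr1-ps1 is a pseudogene related to Rpsa, which encodes a ribosomal protein also known as the laminin receptor, and it is the entry next to Prnp on chromosome 2. Gm32754, Gm32875 and 4930590L14Rik are long noncoding RNA genes, and together with the pseudogene Gm6214 they are 4 consecutive entries on chromosome 3, between Gm31211 and Pdha2. Gm5802 is a pseudogene on chromosome 14. The order of genes is that of the RefSeq annotation of GRCm38.p6, which is not the mm39 build of the counts.

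Libraries held 69.2 to 124.8 M counts (M for mega, median 85.4), and levels are given as CPM, the counts per M of the TMM-scaled library total. All 10 markers of hippocampal pyramidal and granule cells had counts in all 36 libraries. The library labelled Tau trained replicate 4 stood apart from its label: it held 0 counts of Lamr1-ps1 and of each of the 4 chromosome 3 members, and its Prnp level lay among those of libraries without the tau transgene. The main results that rest on it are therefore given with and without it. Mapt, the mouse gene that matches the human transgene, was at 506 to 595 CPM over the 36 libraries and did not separate them.

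The 250 bases before the annotated start are shown for the members with a promoter entry, since these transcripts were high in the same libraries. They come from RefSeq (GRCm38.p6), where 5 of the 8 members matched and the 3 pseudogenes did not. The windows of Prn and Prnp were identical. Capitals mark matches to the TATA box letters TATAAA, to the CCAAT box, and to the GC box letters GGGCGG. Each was searched on both strands, and a match on the reverse strand appears as its reverse complement. The Prnp window lies at chr2:131909678-131909927 on the plus strand, Gm32754 at chr3:140917319-140917568 on the minus strand, 4930590L14Rik at chr3:140951585-140951834 on the plus strand, and Gm32875 at chr3:140964476-140964725 on the minus strand.
Prnp: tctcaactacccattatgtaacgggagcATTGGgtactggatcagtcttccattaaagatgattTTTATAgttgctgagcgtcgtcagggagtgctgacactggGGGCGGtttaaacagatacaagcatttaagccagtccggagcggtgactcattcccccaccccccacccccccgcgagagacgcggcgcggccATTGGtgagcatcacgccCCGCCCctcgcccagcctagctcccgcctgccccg
Gm32754: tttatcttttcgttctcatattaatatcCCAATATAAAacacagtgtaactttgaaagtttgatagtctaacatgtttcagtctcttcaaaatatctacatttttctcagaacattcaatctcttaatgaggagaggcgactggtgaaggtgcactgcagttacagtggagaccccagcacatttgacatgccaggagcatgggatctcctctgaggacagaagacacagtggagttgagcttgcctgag
4930590L14Rik: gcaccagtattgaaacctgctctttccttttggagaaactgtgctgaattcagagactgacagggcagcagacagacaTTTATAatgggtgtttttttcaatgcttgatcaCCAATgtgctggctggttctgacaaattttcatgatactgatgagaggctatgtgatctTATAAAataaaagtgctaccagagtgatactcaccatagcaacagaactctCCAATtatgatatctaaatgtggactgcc
Gm32875: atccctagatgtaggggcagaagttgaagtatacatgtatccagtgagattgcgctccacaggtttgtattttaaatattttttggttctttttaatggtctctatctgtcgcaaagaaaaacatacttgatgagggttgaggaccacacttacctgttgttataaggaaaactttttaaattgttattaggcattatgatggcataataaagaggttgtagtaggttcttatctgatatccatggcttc

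The Prnp window had a GC content of 58.8% and held 1 TATAAA, 2 CCAAT and 2 GGGCGG matches. The chromosome 3 windows were poorer in GC, at 40.8% for Gm32754, 40.0% for 4930590L14Rik and 35.6% for Gm32875, against a median of 52.4% over 32851 promoters. In the Gm32754 window 1 CCAAT and 1 TATAAA match overlapped, and 4930590L14Rik held 2 of each. None of the 3 motifs was found in the Gm32875 window, which says only that those letters are not in it. Of all promoters in the table, 12.4% held TATAAA, 33.8% held CCAAT and 32.7% held GGGCGG. None of these 3 motifs was thus held by all 4 windows. Other motifs were not searched, so whether the windows share any was not tested.

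Lamr1-ps1 and Rpsa are set side by side because the pseudogene counts could be borrowed from its abundant relative. The GENCODE M21 transcript of Lamr1-ps1 matched the Rpsa transcript at 71.7% identity over 900 aligned columns, with 202 differing bases and 53 gap columns. The 90-base ungapped stretch with the most differences, 29, is printed with differing bases in capitals. It covers bases 779 to 868 of the Lamr1-ps1 transcript and bases 781 to 870 of the Rpsa coding sequence.
Lamr1-ps1: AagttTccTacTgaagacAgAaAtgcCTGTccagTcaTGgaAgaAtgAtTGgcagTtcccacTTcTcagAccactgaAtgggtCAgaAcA
Rpsa: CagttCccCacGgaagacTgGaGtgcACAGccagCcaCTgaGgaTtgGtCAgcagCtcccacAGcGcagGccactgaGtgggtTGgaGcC

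Rpsa itself was at 238 to 390.5 CPM in the 36 libraries, and its level in the 16 Tau-labelled libraries other than Tau trained replicate 4 (274 ± 16.8 CPM, SD) overlapped that in the 19 libraries not labelled Tau (290 ± 38.4 CPM, SD). The other pseudogenes have closer relatives. Gm5802 matched Snrpn at 95.3% identity over 99.9% of its length, and Gm6214 matched Zcchc10 at 83.2% over 85.8% of its length. Counts of Gm5802 are therefore uncertain, because the counting tool and its treatment of near-identical copies are not given.

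Prnp had the most counts of the 8 members and fell into 2 ranges that did not overlap once the library labelled Tau trained replicate 4 was set aside. In WT naive libraries its level ran from 728 to 879 CPM with a median of 806 (799 ± 52.2, SD, n = 6). The WT trained libraries were at 768, 743, 781, 795 and 849 CPM (787 ± 39.5, SD, n = 5). APP naive libraries were at 869.7, 791, 843, 772 and 840.3 CPM (823 ± 40.4, SD, n = 5), and APP trained libraries at 776, 866 and 737 CPM (793 ± 66.1, SD, n = 3). These 4 groups overlapped one another throughout.

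The Tau naive libraries had Prnp levels of 1809.8, 1472, 1492 and 1541 CPM (1579 ± 157, SD, n = 4). Replicates 1 to 3 of the Tau trained group had 2142, 1759 and 2052 CPM (1984 ± 200.3, SD, n = 3), and replicate 4 had 846 CPM, which brought the group mean to 1699.8 ± 592 (SD, n = 4). In APP/Tau naive libraries the level ran from 1589.5 to 1829.7 CPM with a median of 1687 (1697 ± 96.7, SD, n = 6). The APP/Tau trained libraries were at 1860.3, 1745 and 1423 CPM (1676 ± 227, SD, n = 3). The lowest of these 16 libraries, APP/Tau trained replicate 3, lay above the highest of the 19 libraries without the transgene, WT naive replicate 5 at 879 CPM. In bulk tissue more cells of a type and more RNA per cell cannot be told apart.

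**Figure D1:**
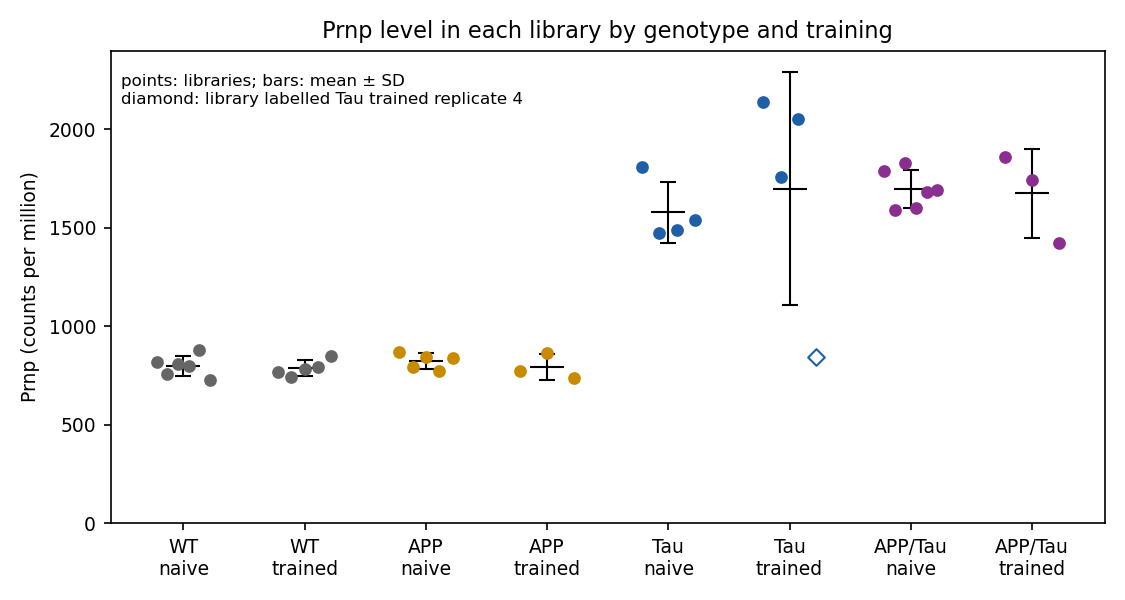
Prnp in CPM (vertical axis) in each of 36 libraries, by genotype and training; bars are group means ± SD. The 19 libraries without the tau transgene sit between 728 and 879, 16 Tau-labelled libraries between 1423 and 2142, and the library labelled Tau trained replicate 4 (open diamond) at 846.

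From lowest to highest group mean, the order was WT trained, APP trained, WT naive, APP naive, Tau naive, APP/Tau trained, APP/Tau naive and Tau trained. Neighbours in this order overlapped in their library ranges, except APP naive and Tau naive, between which the step lay. On the log2 scale Prnp was higher than in WT by 0.98 (SE 0.13) in Tau naive, 1.11 (SE 0.14) in Tau trained, 1.09 (SE 0.12) in APP/Tau naive and 1.09 (SE 0.15) in APP/Tau trained libraries. Without Tau trained replicate 4 the second of these was 1.34 (SE 0.08). Pooled over groups, Prnp also varied more among the 16 libraries, with a coefficient of variation of 11.7%, than among the 19, with 5.79%. Within groups it was 5.70% in APP/Tau naive, 9.94% in Tau naive and 13.5% in APP/Tau trained libraries. In Tau trained libraries without replicate 4 it was 10.1%. In the groups without the transgene it ran from 4.9% in APP naive to 8.3% in APP trained libraries.

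Summed levels of 6 oligodendrocyte markers, all counted in all 36 libraries, were also higher in Tau-labelled libraries. They ranged from 2757 to 4938 CPM (median 3857) in the 19 libraries without the transgene and from 3143 to 5572 CPM (median 4997) in the 17 with the label, with 3725 CPM in Tau trained replicate 4. Unlike Prnp, these ranges overlapped, and in edgeR none of the 6 markers passed the adjusted threshold of 0.05 in any of the 4 comparisons with WT, although all 6 had an unadjusted p under 0.05 in APP/Tau trained libraries, 5 in Tau trained, 1 in APP/Tau naive and 0 in Tau naive libraries. Of all 25382 genes tested, 10.2%, 15.2%, 7.48% and 9.31% had an unadjusted p under 0.05 in these comparisons, in the same order. The part of these cells in the Prnp levels was not tested. Summed levels of 6 microglial markers ran from 254 to 371 CPM in the 19 libraries and from 276 to 553 CPM in the 17.

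Prn, the readthrough transcript, differed far less than Prnp. Its level was 49.7 ± 2.84 CPM (SD, n = 19) in libraries without the transgene and 60.8 ± 6.77 CPM (SD, n = 16) in the Tau-labelled libraries other than Tau trained replicate 4. The first set ran from 45.3 to 54.3 CPM and the second from 52.5 to 72.8 CPM, so the sets overlapped at their edges. The highest values were those of Tau trained replicates 1, 2 and 3, at 72.8, 71.5 and 68.9 CPM. Tau trained replicate 4 was at 56.0 CPM, above the range of the libraries without the transgene, which no other member showed.

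Set against Prnp in the same library, Prn made up a smaller share where Prnp was high. Prn counts came to 5.75% to 6.69% of Prnp counts in the 19 libraries without the transgene and to 3.10% to 4.07% in 16 Tau-labelled libraries. Tau trained replicate 4 had 6.62%, inside the first range. Group means were 6.15% ± 0.31 in WT naive, 6.23% ± 0.245 in WT trained, 3.79% ± 0.0636 in Tau naive and 3.34% ± 0.153 in APP/Tau naive libraries (SD, n = 6, 5, 4 and 6). The 4 Tau naive libraries, from 3.74% to 3.88%, lay above the 6 APP/Tau naive libraries, from 3.10% to 3.54%. In trained libraries the ranges overlapped, at 3.36% to 4.07% in Tau trained replicates 1 to 3 and 3.46% to 3.77% in the 3 APP/Tau trained libraries. These shares are ratios of counts, not of molecules, since the genes overlap and differ in length.

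**Figure D2:**
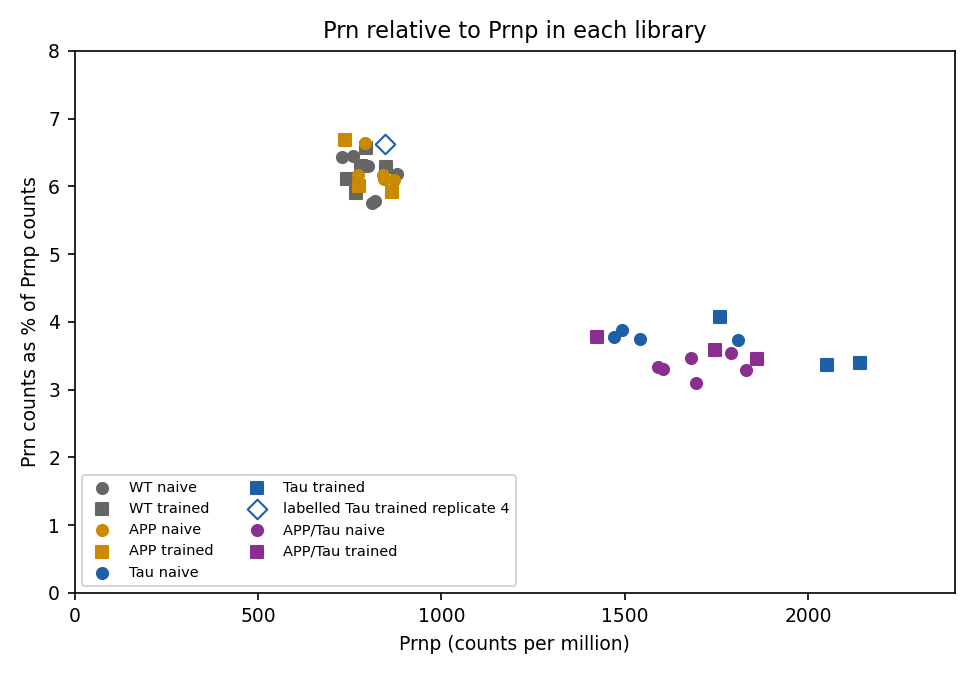
Prn counts as a percentage of Prnp counts (vertical axis) against the Prnp level in CPM (horizontal axis), 1 point per library. The 19 libraries without the tau transgene lie between 5.75% and 6.69%, 16 Tau-labelled libraries between 3.10% and 4.07%, and the library labelled Tau trained replicate 4 at 6.62%.

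Lamr1-ps1 was nearly absent from libraries without the transgene. The Tau naive libraries held 257, 142, 184 and 174 counts, Tau trained replicates 1 to 3 held 346, 163 and 290, and the APP/Tau trained libraries held 263, 236 and 133. In the 6 APP/Tau naive libraries its count ran from 208 to 346. Of the 19 libraries without the transgene, WT trained replicate 4 held 2 counts, APP trained replicate 3 held 1 and the remaining 17 held 0. Summed, that is 3723 counts in 16 libraries against 3 in 19, a ratio of 1490 once library totals are accounted for (exact 95% interval 509.5 to 7230, which covers counting error only and is given as a description).

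The chromosome 3 members showed the same division at lower counts. 4930590L14Rik ran from 15 to 54 counts in the 16 libraries and was at 0 in all others, which makes it at least 228-fold higher against a floor of 3 counts over the group of 19. Gm32754 ran from 22 to 43 counts in the 16 libraries, with 1 count in the 19, in WT naive replicate 3. Gm6214 ran from 8 to 28 counts, with 1 count each in WT trained replicate 4 and APP naive replicate 3. Gm32875, the scarcest, ran from 3 to 22 counts, with 1 count in WT naive replicate 5. Summed counts gave ratios of 573 (102 to 22671) for Gm32754, 194.5 (34.4 to 7731) for Gm32875 and 149 (40.8 to 1236) for Gm6214, with exact 95% intervals that cover counting error only.

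**Figure D3:**
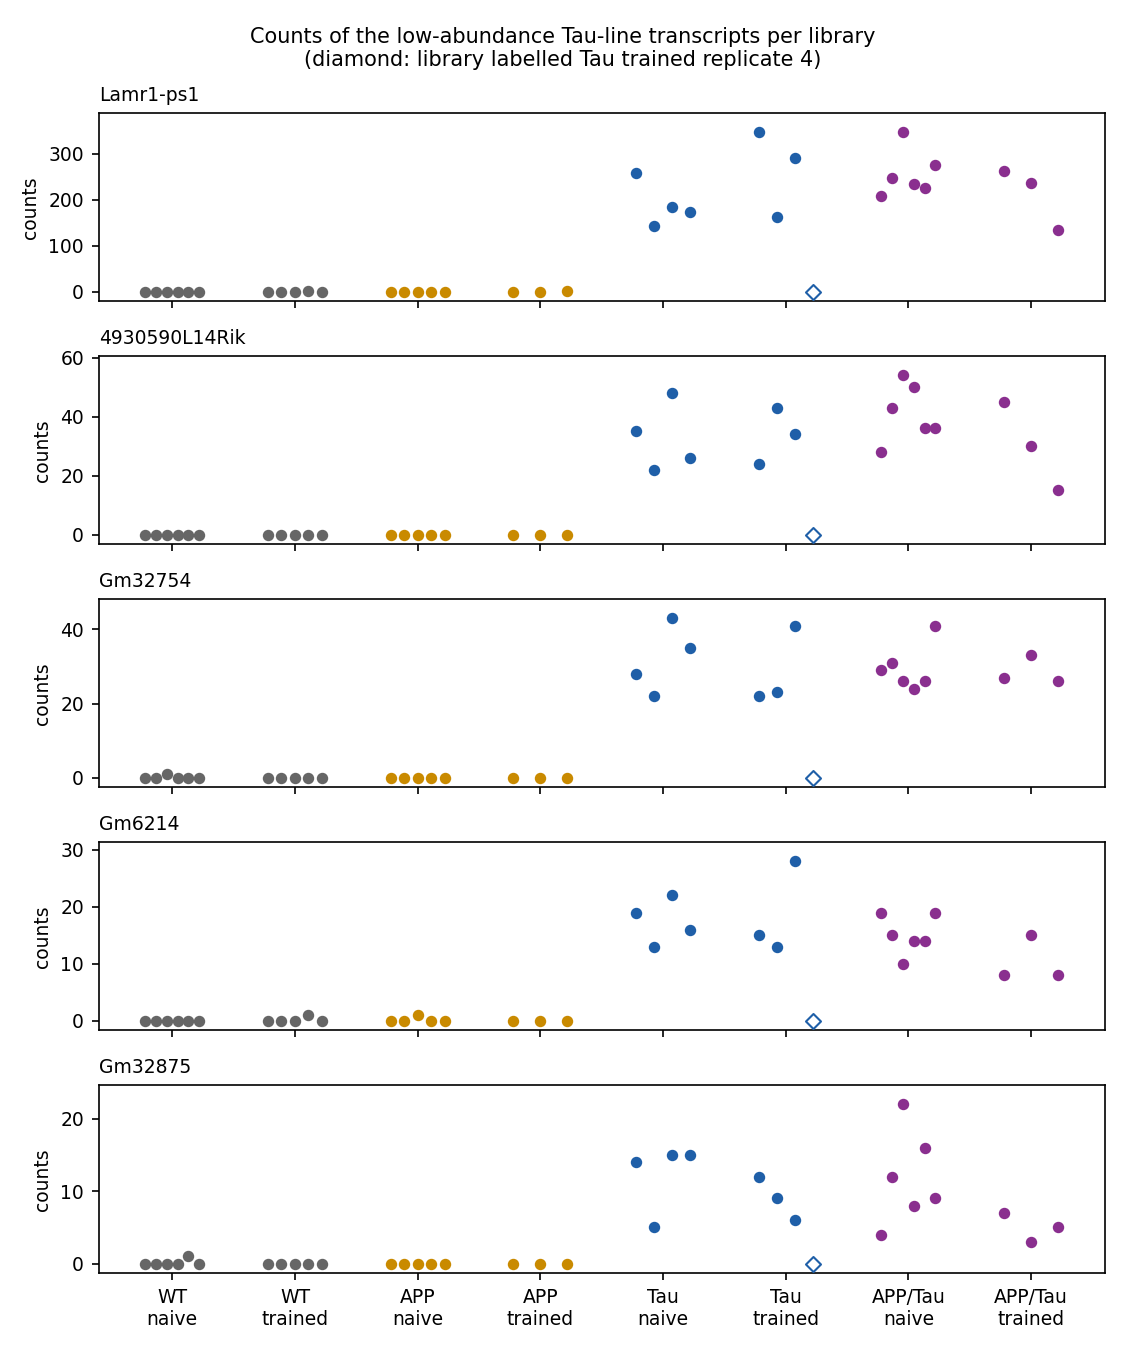
Counts of Lamr1-ps1, 4930590L14Rik, Gm32754, Gm6214 and Gm32875 (vertical axes) in each of 36 libraries by genotype and training. The 19 libraries without the tau transgene hold 0 to 2 counts of each, the 16 Tau-labelled libraries hold 3 to 346, and the library labelled Tau trained replicate 4 (open diamond) holds 0.

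Together the 4 chromosome 3 members had 54 to 128 counts in each of the 16 libraries, and 0 or 1 in each of the 19. Tau naive libraries were at 1.10 ± 0.356 CPM for the sum (n = 4), APP/Tau naive libraries at 1.05 ± 0.153 (n = 6), Tau trained replicates 1 to 3 at 0.999 ± 0.312 (n = 3) and APP/Tau trained libraries at 0.913 ± 0.181 (SD, n = 3). The 4 groups overlapped. At these counts a single library gave a wide range for each gene, as for Gm32875, where Tau naive replicate 2 held 5 counts and replicates 1, 3 and 4 held 14, 15 and 15.

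Gm5802, the Snrpn-like pseudogene, followed neither the transgene nor training. Tau naive replicates 1, 3 and 4 had 8.14, 6.67 and 7.36 CPM (703, 545 and 671 counts), and WT trained replicate 2 had 7.74 CPM (616 counts). The remaining 32 libraries had 0.886 to 1.74 CPM, among them Tau naive replicate 2 at 1.22 CPM and every Tau trained and APP/Tau library. The 3 high libraries of the Tau naive group are those through which it entered the list, with a log2 difference of 2.05 (SE 0.40) from WT naive libraries, just inside an adjusted p of 0.05. Prn, with 0.28 (SE 0.07) in the same comparison, was the member outside that threshold.

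Snrpn, the closest relative of Gm5802 and the gene of a splicing protein, was at 820, 745 and 746 CPM in Tau naive replicates 1, 3 and 4 and at 808 CPM in WT trained replicate 2, within the 681 to 931 CPM of all libraries. Over the 36 libraries the genes most like Gm5802 in log2 CPM, looked up after its values were seen, were Gm22496 (Pearson r = 0.792) and Gm18908 (r = 0.684). Gm22496, a small nucleolar RNA, held 5, 18, 22 and 39 counts in the 4 high libraries and 0 to 4 in the other 32. Gm18908, a pseudogene, was at 1.95, 1.91, 1.69 and 1.63 CPM in these 4 libraries, against at most 1.44 CPM in the rest. Both lie on chromosome 7, and in the RefSeq annotation Gm18908 lies within the span of Snrpn and Gm22496 within that of Snhg14, the noncoding host transcript of the same imprinted region. Gm35595, the entry next to Gm5802 on chromosome 14, was at 0.984, 0.649, 0.636 and 0.766 CPM in the 4 high libraries, of which all but 0.984 lay within the 0.302 to 0.782 CPM of the other 32.

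**Figure D4:**
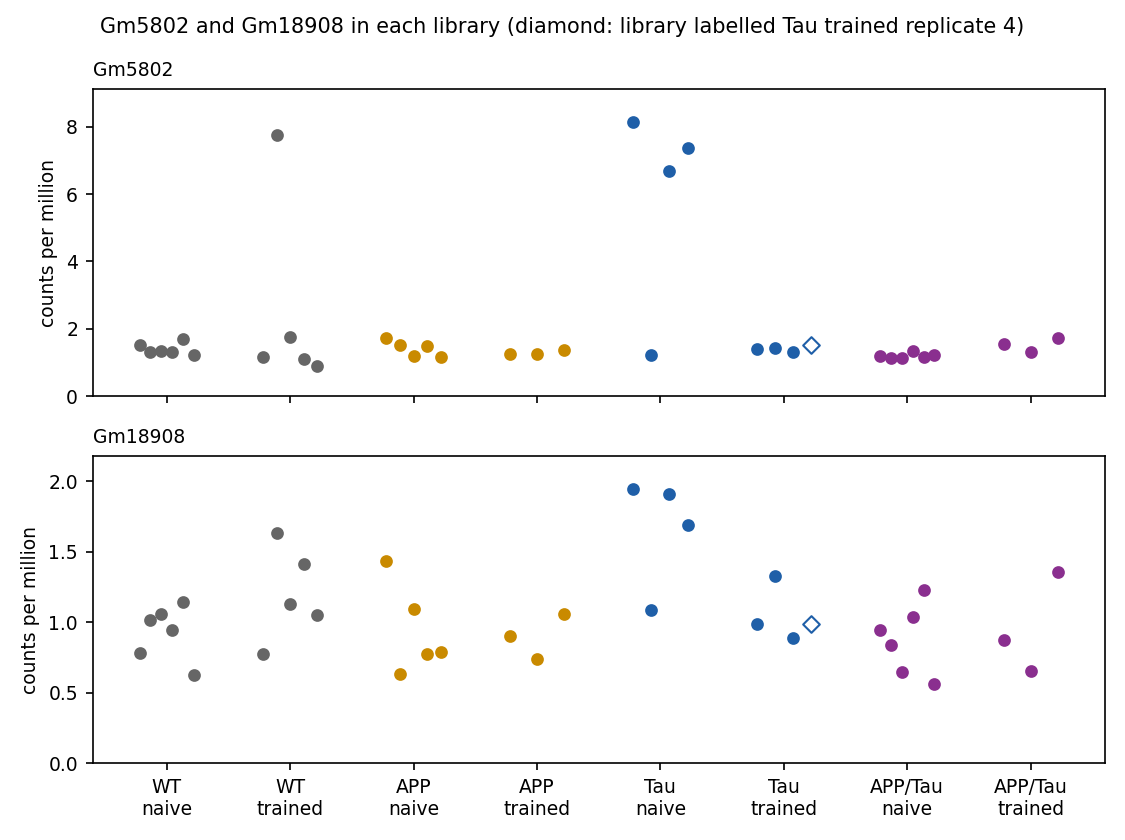
Gm5802 and Gm18908 in CPM (vertical axes) in each of 36 libraries by genotype and training; the open diamond is the library labelled Tau trained replicate 4. Gm5802 is between 6.67 and 8.14 in Tau naive replicates 1, 3 and 4 and WT trained replicate 2, and between 0.886 and 1.74 in the other 32 libraries.

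In the 4 comparisons that chose the list, the members past the threshold (adjusted p under 0.05 in the quasi-likelihood test of edgeR) are given as a description. In Tau against WT naive libraries these were 7 of the 8 members, all but Prn, and they made up every gene called, 0.0276% of 25382 tested. Leaving out Tau trained replicate 4, which enters through the shared spread, gave 6, without Gm5802, and 0.0236% of 25391 genes. In trained libraries they were 6 of 8, all but Gm32875 and Gm5802, where 0.303% of all genes were called. Leaving out Tau trained replicate 4 gave 6 again with 0.126% of 25391 genes called. In APP/Tau against WT they were 6 of 8 in naive libraries, all but Prn and Gm5802 (0.067% of all genes), and 4 of 8 in trained libraries, namely Prnp, Lamr1-ps1, Gm32754 and 4930590L14Rik (0.0552% of all genes). These comparisons share WT and Tau-line libraries with the list's choice, so nothing is read from the counts.

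Comparisons between groups of equal Tau status were not used in the choice and were tested. They ask whether the APP transgene or training altered these transcripts. In APP/Tau against Tau trained libraries 0 of 8 members passed, against 0.481% of all genes. An unadjusted p under 0.05 was held by 0 members, against 15.7% of all genes. Without Tau trained replicate 4, again 0 of 8 passed, against 0.138% of all genes, and 2 (Prnp and Prn) had an unadjusted p under 0.05, as had 13.5% of all genes. APP against WT gave 0 of 8 in naive libraries (0.0355% of all genes) and 0 of 8 in trained libraries (0.0276%). At an unadjusted p under 0.05 there were 0 members in each, against 3.68% of all genes in naive and 5.84% in trained libraries. DESeq2 and limma-voom also called 0 of 8 in these 3 comparisons. The share of all genes called was not counted for these tools, here or below. In APP/Tau against Tau naive libraries 1 of 8 passed, Gm5802, against 0.0394% of all genes.

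That Gm5802 difference was -2.28 on the log2 scale (SE 0.40, 95% interval -3.10 to -1.45, adjusted p = 0.00978, edgeR). It rests on the 3 Tau naive libraries that put the gene on the list, since 6 of 6 APP/Tau naive libraries and Tau naive replicate 2 were low, so it is no independent result. The call was lost when Tau naive replicate 1, 3 or 4 was left out, and in limma-voom.

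For Prnp the added APP transgene made no difference past the threshold. The log2 difference between APP/Tau and Tau was 0.10 in naive libraries (SE 0.13, 95% interval -0.17 to 0.38, adjusted p = 0.913, edgeR). In trained libraries it was -0.02 (SE 0.16, 95% interval -0.34 to 0.30, adjusted p = 0.969). Without Tau trained replicate 4 the trained difference was -0.25 (SE 0.09, unadjusted p = 0.00777, adjusted p = 0.216 in edgeR), as Tau trained replicates 1 and 3 lay above all 3 APP/Tau trained libraries and replicate 2 did not. Between APP and WT it was 0.04 in naive libraries (95% interval -0.21 to 0.30) and 0.01 in trained libraries (95% interval -0.30 to 0.32). These intervals leave room for changes of that size in either direction. Tau trained replicate 4 enters all of them through the shared spread, also where its group is not compared. Leaving it out gave a naive difference between APP/Tau and Tau of 0.10 with a smaller SE of 0.07 (adjusted p = 0.846, edgeR).

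Prn and the low-abundance members did not pass in the same comparisons either. Prn in APP/Tau minus Tau was -0.08 in naive (SE 0.07) and -0.16 in trained libraries (SE 0.08), and -0.25 (SE 0.08, adjusted p = 0.183, edgeR) in trained libraries without Tau trained replicate 4. Lamr1-ps1 differed by 0.32 (SE 0.37) in naive and 0.21 (SE 0.44) in trained libraries on the log2 scale. Without Tau trained replicate 4 it differed by 0.31 (SE 0.20) in naive and -0.15 (SE 0.25) in trained libraries. For the chromosome 3 members the differences ran from -0.32 to 0.21 in naive libraries, with the widest interval, -1.05 to 0.72, for Gm32875. In trained libraries they ran from -0.33 to 0.51, with the widest interval, -1.81 to 1.16, again for Gm32875, and from -0.66 to 0.19 without Tau trained replicate 4.

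No member passed the threshold for training in any genotype in edgeR. Of 8 members 0 passed in WT, APP, Tau and APP/Tau libraries, where 0% of all genes passed as well and 1486, 1329, 3707 and 780 genes had an unadjusted p under 0.05. At an unadjusted p under 0.05 there were 0 members in WT, 0 in APP, 2 in Tau (Prn and Gm5802) and 0 in APP/Tau. Without Tau trained replicate 4 there were 3 in Tau (Prnp, Prn and Gm5802), where 13.1% of all genes had such a p. DESeq2 and limma-voom each called 1 member, Gm5802, in the Tau comparison and 0 in the others. Prnp changed by -0.02 (SE 0.12) on the log2 scale in WT, -0.05 (SE 0.15) in APP, 0.11 (SE 0.15) in Tau and -0.02 (SE 0.15) in APP/Tau libraries. The shared spread behind these SE includes Tau trained replicate 4, and without it the APP/Tau change was -0.02 (SE 0.08).

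In Tau libraries the training difference of Prnp was 0.33 (SE 0.08, unadjusted p = 0.000297, adjusted p = 0.138, edgeR) without Tau trained replicate 4. Tau trained replicates 1 and 3 then lay above all 4 Tau naive libraries, while replicate 2, at 1759 CPM, lay below Tau naive replicate 1. Prn showed a training difference of 0.17 (SE 0.08, unadjusted p = 0.0342, adjusted p = 0.296, edgeR) in Tau libraries, and 0.25 (SE 0.08, adjusted p = 0.193) without replicate 4. All 3 of the remaining Tau trained libraries, at 68.9 to 72.8 CPM, were above the 4 Tau naive libraries, at 55.7 to 67.6 CPM. Choroid plexus, thalamus and pyramidal or granule cell markers also had unadjusted p under 0.05 in this comparison, for 8 of 8, 6 of 6 and 8 of 10 genes with 0 past the adjusted threshold, against 14.6% of all genes. Without Tau trained replicate 4 these were 6, 5 and 5 genes, against 13.1% of all genes, and their part in the Prn and Prnp values was not tested. With all libraries, the markers of smallest p, looked up after the values were seen, differed in direction. Otx2 (-2.24) and Kl (-1.83) of choroid plexus and Lef1 (-1.34) and Rora (-0.76) of thalamus were lower after training. Bcl11b (0.32) and C1ql2 (0.89) of pyramidal or granule cells were higher. Gm5802 was lower in Tau trained libraries by -2.04 on the log2 scale (SE 0.45, adjusted p = 0.0579), which again rests on the 3 high naive libraries.

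Whether training acted differently in APP/Tau than in Tau mice was tested as an interaction, and 0 of 8 members passed in edgeR, as did 0% of all genes, with 2618 genes at an unadjusted p under 0.05. The interaction for Prnp was -0.12 (SE 0.21, 95% interval -0.54 to 0.29), and -0.35 (SE 0.11, unadjusted p = 0.00377, adjusted p = 0.419, edgeR) without Tau trained replicate 4. At an unadjusted p under 0.05 there was 1 member, Gm5802, with all libraries. Without that library there were 2, Prnp and Gm5802, where 9.05% of all genes had such a p. DESeq2 and limma-voom called 0.

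**Figure D5:**
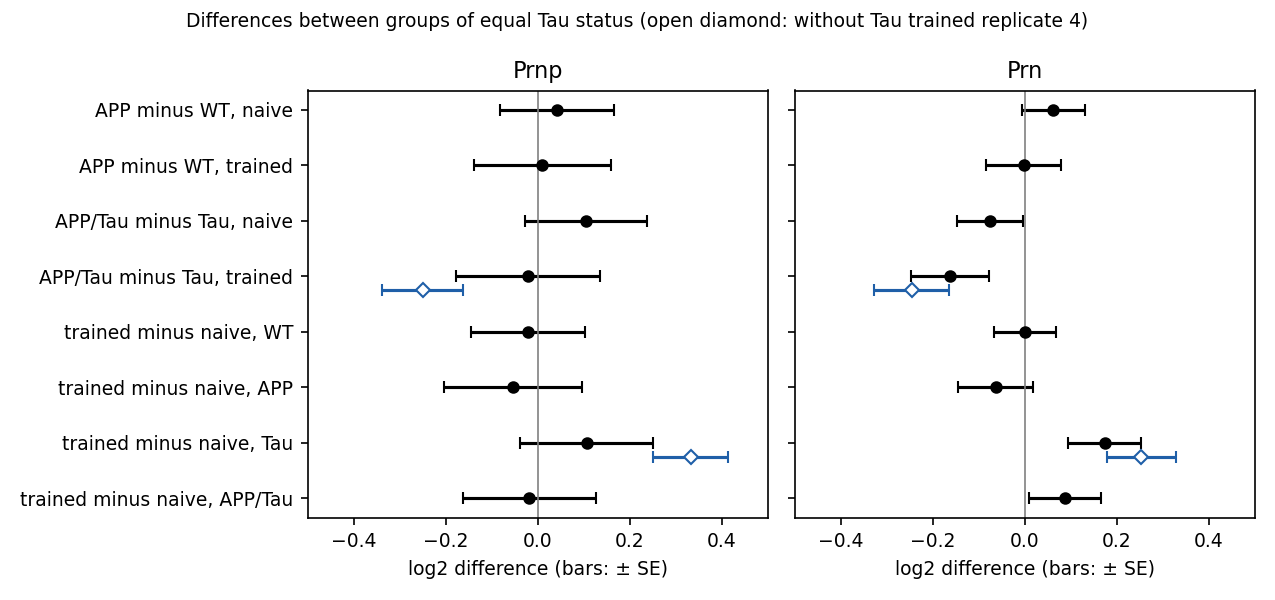
Log2 differences of Prnp (left) and Prn (right) between groups of equal Tau status, points with ± SE from the fit to all 36 libraries; open diamonds leave out the library labelled Tau trained replicate 4. Prnp differences run from -0.05 to 0.11 with all libraries and are -0.25 and 0.33 in the 2 comparisons shown without that library.

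Within the 16 libraries, how the members varied together was not used in choosing them. Prnp and Prn rose and fell together (Pearson r = 0.80, permutation p = 0.00017, Benjamini-Hochberg adjusted 0.00153 over 9 relations, Spearman rho = 0.77, permutation p = 0.00085, n = 16). Without the 2 libraries farthest from the median of Prnp, r was 0.68. The relation was also present in the 19 libraries without the transgene (r = 0.72, permutation p = 0.00073, adjusted 0.00219, rho = 0.69, permutation p = 0.00136, n = 19; r = 0.62 without 2 libraries). Both values come from 1 library total and from overlapping genes. Within each genotype, r was 0.89 over 7 Tau libraries (exact permutation p = 0.0131, adjusted 0.0262 over 4 relations) and 0.79 over 9 APP/Tau libraries (exact permutation p = 0.0106, adjusted 0.0262). Permutations did not hold training fixed, so these relations also take in differences between naive and trained libraries. The same holds for genotype over the 16 and the 19 libraries. Among the 7 Tau libraries the 3 trained ones averaged higher in both genes (Prnp 1984 against 1579 CPM, Prn 71.1 against 59.7 CPM).

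Prnp and Lamr1-ps1 also varied together in the 16 libraries (r = 0.75, permutation p = 0.00063, adjusted 0.00219, rho = 0.76, permutation p = 0.00106, n = 16; r = 0.67 without 2 libraries). Tau trained replicates 1 and 3, the highest in Prnp, were also the highest in Lamr1-ps1 with 3.26 and 3.49 CPM, followed by APP/Tau naive replicate 2 with 3.25 CPM. Within the 7 Tau libraries, naive and trained pooled, r was 0.87 (exact permutation p = 0.0210, adjusted 0.0280), and 0.59 without 2 libraries. Lamr1-ps1 also averaged higher in the trained ones of these, at 2.87 against 2.19 CPM. Within the 9 APP/Tau libraries r was 0.68 (exact permutation p = 0.0417, adjusted 0.0417) but rho was 0.43 (exact permutation p = 0.25), and r fell to 0.13 without 2 libraries, so there it rests on those libraries.

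The chromosome 3 members did not vary with Prnp among the 16 libraries. Pearson r with Prnp was -0.16 for Gm32754 (permutation p = 0.554), -0.08 for Gm32875 (permutation p = 0.780), 0.17 for Gm6214 (permutation p = 0.517) and 0.01 for 4930590L14Rik (permutation p = 0.974), and Spearman's rho was -0.21, 0.04, -0.03 and 0.11. Counts of 3 to 54 per library limit what such a relation can show. Gm5802 and Prnp had r = -0.22 over the 16 (permutation p = 0.404) and r = -0.28 over the 19 libraries (permutation p = 0.302).

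Over all 36 libraries, the genes outside the list most like Prnp in log2 CPM were Sema4d (Pearson r = 0.775), S1pr5 (0.715), Pacs2 (0.703), Phldb1 (0.702), Gm13707 (0.696), Wipf1 (0.695), Litaf (0.694), Prr18 (0.694), Plekhh1 (0.688) and Prr5l (0.688). Sema4d, an oligodendrocyte and immune cell semaphorin, averaged 63.5 CPM in the 19 libraries and 71.9 CPM in the 16, and S1pr5, a sphingosine phosphate receptor of oligodendrocytes, 15.3 and 20.3 CPM. None of the 10 followed Prnp within either set as closely as over both: their r ran from 0.01 to 0.47 in the 16 and from -0.22 to 0.39 in the 19 libraries. Among the 19 libraries without the transgene the genes most like Prnp were others, namely Tm2d2 (r = 0.892), Nudt2 (0.873), Hk1 (0.872), Spr (0.871) and Manbal (0.867).

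The other prion family genes did not show the step of Prnp between the 19 and the 16 libraries. Sprn, which encodes the related protein shadoo, was at 201 ± 17.5 CPM in the 19 libraries and 187.5 ± 23.9 CPM in the 16 (SD). Its log2 difference from WT was -0.16 in Tau naive, 0.20 in Tau trained, -0.17 in APP/Tau naive and -0.19 in APP/Tau trained libraries, with SE of 0.08 to 0.10 and adjusted p of 0.268 to 0.655 in edgeR. Prnd, the far end of the Prn readthrough, had at most 38 counts in a library and was not called in any comparison with WT. An unadjusted p under 0.05 was reached by Sprn in Tau trained and APP/Tau naive libraries and by Prnd in neither. For training in Tau libraries Sprn differed by 0.26 (SE 0.09, unadjusted p = 0.00937, adjusted p = 0.195, edgeR). In APP/Tau minus Tau trained libraries it differed by -0.40 (SE 0.10, unadjusted p = 0.00047, adjusted p = 0.0625, edgeR). Of all genes, 14.6% and 15.7% had an unadjusted p under 0.05 there. Sprn averaged 220 CPM in Tau trained libraries both with and without replicate 4. Both differences had the sign of Prnp, while Prnd had the opposite sign in each (-0.77, SE 0.68, and 1.16, SE 0.69). Little rests on these signs, since Prnp in APP/Tau minus Tau trained libraries was near 0 (-0.02, SE 0.16) and changed sign in other fits.

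Among 25 partners of prion protein at the cell surface and in signalling, 1 passed in the 4 comparisons with WT. Slc39a6, a zinc transporter of the family from which prion genes are thought to descend, was higher in Tau trained than in WT trained libraries by 0.35 on the log2 scale (SE 0.08, adjusted p = 0.0491, edgeR). Its level was 74.6 to 83.1 CPM in the 4 Tau trained libraries and 59.1 to 62.7 CPM in the 5 WT trained ones, so these groups did not overlap. The Tau trained mean was 78.2 CPM with and without replicate 4. That library, which lacked the Tau-line transcripts, was thus as high in Slc39a6 as the rest of its group. WT naive libraries, at 56.6 to 79.1 CPM, and APP naive libraries, at 63.5 to 81.2 CPM, overlapped the Tau trained range. The log2 difference from WT was 0.01 (SE 0.08) in Tau naive, -0.09 (SE 0.07) in APP/Tau naive and 0.04 (SE 0.09) in APP/Tau trained libraries. In Tau trained libraries without replicate 4 it was 0.35 again, with an adjusted p of 0.0956 in edgeR. The remaining 24 partners were not called there, with a median log2 difference over the list of 0.07 against 0.00 for all genes tested, and 8 of the 25 had an unadjusted p under 0.05, against 15.2% of all genes. In the other 3 comparisons with WT 0 of 25 were called, and 4, 2 and 1 had an unadjusted p under 0.05 in Tau naive, APP/Tau naive and APP/Tau trained libraries, against 9.31%, 7.48% and 10.2% of all genes.

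A list made for cleavage and GPI anchoring of prion protein held 15 genes, whose roles there were not each checked. Of these, 14 were tested and 0 passed in any comparison with WT (edgeR). An unadjusted p under 0.05 was held by 1, 4, 0 and 0 genes in Tau naive, Tau trained, APP/Tau naive and APP/Tau trained libraries. The shares of all genes with such a p were 9.31%, 15.2%, 7.48% and 10.2% in that order. The list includes Adam10, the main sheddase of prion protein at the membrane.

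Genes next to the members were also counted, 20 on each chromosome. Of these, 17 near Prnp on chromosome 2, 8 near the chromosome 3 members and 9 near Gm5802 on chromosome 14 were tested, and 0 passed in any comparison with WT in edgeR. Unadjusted p-values under 0.05 numbered 2, 3, 0 and 2 on chromosome 2, 0, 0, 0 and 4 on chromosome 3, and 1, 0, 0 and 0 on chromosome 14, in the order Tau naive, Tau trained, APP/Tau naive and APP/Tau trained, against 9.31%, 15.2%, 7.48% and 10.2% of all genes. The smallest p-values in each comparison belonged to Gm14051 (log2 difference 1.04, SE 0.41) and Slc23a2 (0.14, SE 0.06) in Tau naive, to Smox (-0.27, SE 0.11) and Cds2 (0.14, SE 0.06) in Tau trained, to Gm14281 (-0.57, SE 0.31) and Rnaseh2b (-0.18, SE 0.10) in APP/Tau naive, and to Rassf2 (0.30, SE 0.10) and Unc5c (-0.29, SE 0.11) in APP/Tau trained libraries. Unc5c, a netrin receptor gene, lies on the Pdha2 side of the chromosome 3 members, and Rassf2 on the Prnd side of Prnp.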

How the data were processed

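RNA of the hippocampal input fraction was measured in 36 libraries, grouped by the genotype and training in their labels. Nothing in the labels ties each library to a separate animal, so p-values reflect spread between libraries that may be technical. Raw counts per gene symbol, as deposited, covered 50559 genes, of which 41519 had a count. Reads were trimmed with Trimmomatic 0.39 and the build was mm39, per the submitters' processing notes. No source used here names the aligner, the counting tool, the annotation or the strand setting. Even values made up 54.7% of counts from 1 to 10 and 50.0% of counts over 1000, so small counts may be less precise than they look if mates of a pair were counted apart, which was not tested.

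The deposited counts were fitted in R 4.3.3 with edgeR 4.0.16 (TMM scaling, quasi-likelihood test with robust estimation), with 1 mean for each of the 8 groups. filterByExpr by group (minimum count 10, minimum total 15) left 25382 genes. P-values were adjusted by Benjamini-Hochberg over all genes within each of 13 comparisons, at 0.05. The edgeR fit was tested on simulated counts, for the comparison of APP/Tau with Tau naive libraries only. Relations used 100000 permutations, or all permutations within a genotype. Pseudogenes were matched to GENCODE M21 transcripts with blastn 2.17.0. Alternatives were RLE size factors, no filter, a replicate block, DESeq2 1.42.0, a covariate for the library number, limma-voom (limma 3.58.1) weighted by library quality, fits to the groups compared alone, and leaving out each library.

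The members and the gene lists were chosen with earlier results of these data known. Named genes were the 8 members, the 10 genes most like Prnp over 36 libraries and 5 over 19 (log2 CPM with a prior count of 2), every prion family gene, list genes past the threshold, the 2 neighbours of smallest p in each comparison of Tau or APP/Tau with WT, Mapt and Rpsa. Others are marked as chosen after their values were seen, or serve only as relatives and landmarks of the members. No 2 of the 68 pairs of libraries in the same group held identical counts.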

Additional observations from a re-analysis of the deposited data

Results flagged for a closer look

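Of 38 sets of a member in a group of 4 to 6 libraries, 9 had a library far from the others by Dixon's gap test. The test flags about 1 in 20 sets by chance if values spread normally. That rate does not hold for sets at 0 in all but 1 library, which are always flagged. For Gm5802, WT trained replicate 2 stood at 7.74 CPM against 0.886 to 1.74 CPM in the other 4 libraries, and APP/Tau naive replicate 4 at 1.35 CPM against 1.14 to 1.21 CPM. For Gm32875, Tau naive replicate 2 was low at 0.0571 CPM (5 counts) against 0.162 to 0.184 CPM. For Prn, APP naive replicate 4 was low at 47.5 CPM against 51.5 to 53.0 CPM.

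The other 5 were stray counts of Tau-line transcripts in libraries without the transgene, in groups otherwise at 0. WT trained replicate 4 had 2 counts of Lamr1-ps1 (0.0237 CPM) and 1 of Gm6214 (0.0119 CPM). WT naive replicate 3 had 1 count of Gm32754 (0.0109 CPM), WT naive replicate 5 had 1 of Gm32875 (0.0100 CPM), and APP naive replicate 3 had 1 of Gm6214 (0.0103 CPM).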

How the results depend on the processing

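In the comparisons that chose the list, the number of members called out of 8 depended on the fit. For Tau against WT naive it was 7, with 3 under the replicate block (Prnp, Lamr1-ps1 and Gm32754), 2 with only the groups compared, and 3 to 7 when each library was left out in turn, the lowest without Tau naive replicate 3. For Tau against WT trained it was 6, with 1 in the fit of only the groups compared, where Prnp had a log2 difference of 1.10 and an adjusted p of 0.0629, and 2 to 6 when libraries were left out (3 without WT trained replicate 1 or 2 or Tau trained replicate 2 or 3, and 2 without Tau trained replicate 1). For APP/Tau against WT trained it was 4, with 2 (Prnp and Lamr1-ps1) under the replicate block, in DESeq2 and with only the groups compared, and 2 to 4 when libraries were left out, the lowest without APP/Tau trained replicate 2. In APP/Tau against Tau naive the 1 call, Gm5802, went to 0 under the replicate block, in limma-voom and with only the groups compared, and ran from 0 to 1 when libraries were left out. For training in Tau it was 0, with 1 (Gm5802) in DESeq2 and limma-voom, and 0 to 1 when libraries were left out, 1 without Tau naive replicate 2. The cause of these changes was not tested, apart from the fewer samples in the fits on parts of the data. The share of all genes called was counted only in the main fit and in that without Tau trained replicate 4. Fewer members called in another fit therefore cannot be told from fewer calls over all genes.

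Prnp differences near 0 changed sign without passing a threshold. APP minus WT in trained libraries, 0.01, became -0.026 under the replicate block, -0.0045 in limma-voom, and ran from -0.058 to 0.060 when libraries were left out. APP/Tau minus Tau in trained libraries, -0.02, became 0.0065 with the library number as a covariate and 0.061 in limma-voom, and ran from -0.25 to 0.11 when libraries were left out. Training differences ran from -0.024 to 0.33 in Tau, -0.097 to 0.083 in APP/Tau and -0.050 to 0.0074 in WT libraries, and the interaction from -0.35 to 0.0054, when libraries were left out, with the low end in Tau and the high end of the interaction without Tau trained replicate 1.

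Same-numbered libraries of different groups did not deviate together (r from -0.335 to 0.233 over 106 pairs, median -0.0137), so the replicate block pairs libraries by number only. RLE size factors and no filter on low counts changed no count by over 1.5 times and no direction of Prnp. Members on chromosome 3 have at most 54 counts in a library, which limits their differences.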
